A study of Drosophila melanogaster with 140 samples.

Results

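Glutathione S-transferases (GSTs) were followed through fly heads, brains, sorted brain cells and ribosome-bound RNA, across age, neuronal Aβ42 and Mettl3 RNAi. The 35 genes were taken by symbol (GstD, GstE, GstO, GstS, GstT and GstZ) out of 17562 genes counted. They comprised 11 of the Delta class, 14 Epsilon, 3 Omega, 1 Sigma, 4 Theta and 2 Zeta genes. GSTs join the tripeptide glutathione to reactive compounds, such as the aldehydes left by lipid peroxidation, and so make them soluble and ready for export. The Delta and Epsilon classes are expanded in insects and are best known for insecticide resistance. CncC, the fly counterpart of Nrf2 encoded by cnc, induces many of them under oxidative stress when its inhibitor Keap1 lets it go, and GstD1 is the usual reporter of that response.

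All flies were males. Heads carried the near-ubiquitous driver DaGal4 with Mettl3 RNAi (Ime4 RNAi in the labels) or, as control, Mcherry RNAi, which targets no fly gene, at 34d and 5d, with 3 replicates of input RNA and of m6A-IP (RNA pulled down with an antibody to N6-methyladenosine) each. The pan-neuronal driver ElavGal4c155 expressed either UAS-AB(2x), called Aβ42 here, or UAS-mcd8GFP (mCD8-GFP), a membrane GFP, at 6d, in heads (2 against 3 input libraries) and in brains (3 against 3). RepoGal4, a driver of all glia, and ElavGal4 labelled cells with membrane GFP together with Mettl3 or Mcherry RNAi. GFP+ and GFP- cells were sorted with repo (3 libraries a group) and GFP+ cells with elav (4 at 34d, 3 at 5d), from pooled brains in the presence of actinomycin D, which blocks new transcription. TRAP pulled down ribosomes carrying tagged RpL3 made in neurons (elav) or glia (repo). It gave 3 or 4 IP libraries a group and 4 inputs, each input being RNA of the same pooled brains. In every experiment control means Mcherry RNAi or mCD8-GFP in the same driver line, so controls also carry the driver and a transgene.

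The 140 libraries held between 2132983 and 36361242 counted reads, with a median of 12953433, and the shallowest were TRAP-IP. Values below are CPM, read counts relative to a library's total after TMM scaling within an experiment, and a change is called when edgeR's quasi-likelihood test gives a Benjamini-Hochberg adjusted p under 0.05 over all genes tested. In heads at 34d Mettl3 fell to 2.29 CPM with RNAi, against 6.85 CPM without it (-1.59 on the log2 scale, SE 0.13, edgeR adjusted p = 4.35e-08). At 5d it averaged 3.55 CPM with RNAi and 5.31 CPM in control heads (adjusted p = 0.47). The library of control heads at 5d replicate 1 stood apart for many GSTs. The counts of GSTs called in comparisons that use it are also given without it. Nothing states that replicates came from separate crosses, so p-values measure the spread between these samples. The sorted glia were not pure: summed over 10 genes, glial markers reached 20080 to 28424 CPM in repoGFP+ cells against 728 to 759 CPM in repoGFP- cells at 5d, whereas neuronal markers still reached 9549 to 11666 CPM in repoGFP+ cells against 13139 to 16094 CPM in repoGFP- cells. In elavGFP+ cells at 5d glial markers summed to 5542 to 7278 CPM.

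GstD1 to GstD11 lie together on chromosome 3R (12364776 to 12385624, dm6), and GstE1 to GstE10 on 2R (18396638 to 18409835). The Omega genes form a group on 3L (8518885 to 8524866), and GstZ1 and GstZ2 are neighbours on 3R (9455517 to 9460652). GstE11 to GstE14, GstS1, GstT1 and GstT2 are elsewhere on 2R, and GstT3 and GstT4 are on X. These genes are short and alike in sequence, so that reads of close copies can be shared between them. GstE10 overlaps the exons of GstE1 by 20 bases on the other strand. Its counts came to 0.626% of those of GstE1 in heads and 0.533% in brains, both made with stranded kits, but to 20.9% in sorted cells, made with SMART-Seq v4, and 15.2% in TRAP inputs, for which the methods name a stranded SMARTer kit. The cause of this gap was not tested, and values of GstE10 in sorted cells and TRAP are uncertain. GstD4, GstD6 and GstD7 passed the filter on low counts in no comparison, and GstD5, GstD8, GstD10 and GstE4 in only some, so 32 genes were tested at least once.

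Per kilobase of exon, GstE12 and GstD1 were the highest GSTs of control heads at 5d, with 514 and 433 CPM per kb, and GstD1 (271) and GstE12 (209) those of mCD8-GFP brains. In sorted repoGFP+ cells at 5d GstD1 reached 1108 CPM per kb, GstE2 717 and GstE1 523. The repoGFP- cells held little of any: GstE13 was first at 32.5 CPM per kb, ahead of GstD1 at 27.2 and GstZ2 at 25.3.

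In glia against other brain cells, most GSTs of the insect-expanded classes that could be tested were higher in glia. Of 27 GSTs tested in sorted control cells at 5d, 15 were higher and 2 lower in repoGFP+ than in repoGFP- cells, where 13.3% of all 9181 genes were higher and 4.77% lower. The median log2 fold change was 4.33 over the GSTs and -0.02 over all genes tested. Summed over all GSTs, repoGFP+ cells held 3154 ± 71 CPM and repoGFP- cells 244 ± 41 CPM (SD, n = 3 each). Of the Delta genes 4 of the 5 tested rose, of the Epsilon genes 8 of the 12 tested rose and 1 fell, and no Omega gene of 3 was called. The other 6 Delta genes were too low to test here. The filter on low counts keeps a gene that is high enough in 1 group alone. GstE7, GstD3 and GstD9 passed it through repoGFP+ cells, so these counts and the median partly follow from the filter. The shares over all genes passed the same filter. In bulk libraries such as these, fewer cells of a type and less RNA per cell cannot be told apart.

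**Figure D1:**
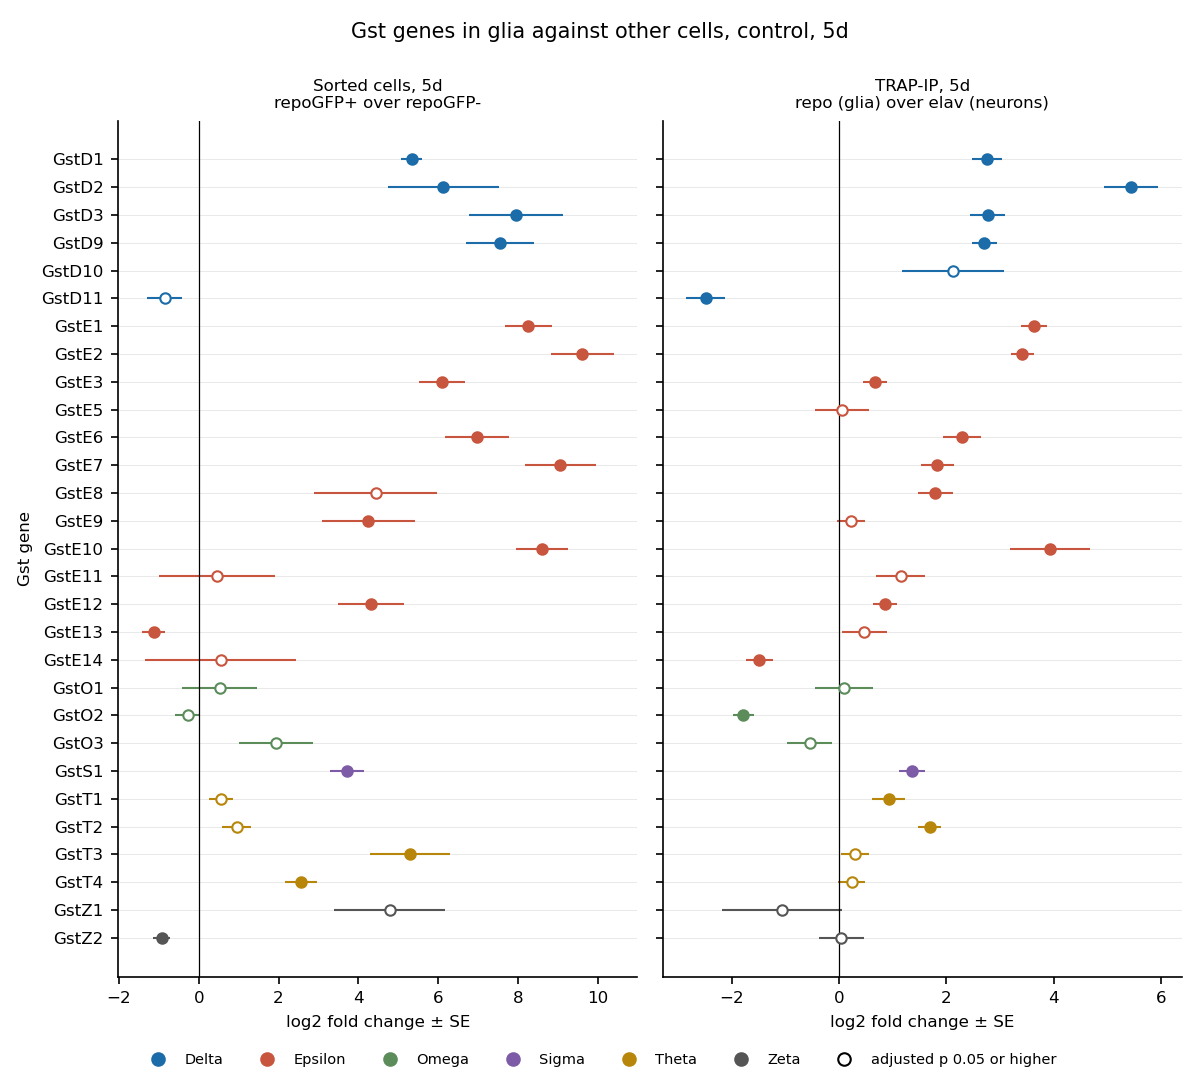
Each row is a GST gene, and points give the log2 fold change ± SE of repoGFP+ over repoGFP- sorted cells (left) and of repo over elav TRAP-IP (right), both control at 5d, filled where the adjusted p was under 0.05 and coloured by class. The 4 Delta and 8 Epsilon genes called higher lie far to the right in sorted cells, up to 9.62 for GstE2, whereas GstE13 lies at -1.13, and in TRAP GstD11, GstO2 and GstE14 lie left of 0.

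GstE2 had 621, 644 and 650 CPM in repoGFP+ cells, against 0, 1.17 and 1.28 CPM in repoGFP- cells (log2 fold change 9.62, SE 0.79, edgeR adjusted p = 0.000263). Its neighbour GstE1 had 525, 434 and 345 CPM in repoGFP+ cells, against 2.02, 1.79 and 0.301 CPM in repoGFP- cells (8.26, SE 0.59, adjusted p = 0.00014). GstE7 had 14.3, 13.8 and 23.7 CPM in repoGFP+ cells, against 1 read in the 3 repoGFP- libraries together (adjusted p = 0.000634). These members of the Epsilon cluster were thus all but confined to the repoGFP+ gate, with no overlap between the groups. GstD3 had 37.1, 30 and 96.6 CPM in repoGFP+ cells, against 0, 0.621 and 0 CPM in repoGFP- cells (7.96, SE 1.18, adjusted p = 0.00394). GstD9 had 80.6, 90.2 and 39.5 CPM in repoGFP+ cells, against 0.316, 0.759 and 0 CPM in repoGFP- cells (7.54, SE 0.85, adjusted p = 0.0012). GstE10, with the limit given above, averaged 93.3 CPM in repoGFP+ and 0.222 CPM in repoGFP- cells (8.61, SE 0.64, adjusted p = 0.000176).

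GstD1, which strips chlorine from DDT and conjugates lipid aldehydes, had 959, 862 and 982 CPM in repoGFP+ cells, against 15.1, 26.8 and 26.8 CPM in repoGFP- cells (5.33, SE 0.26, adjusted p = 3.32e-05). GstS1, the Sigma-class GST abundant in flight muscle, had 233, 237 and 285 CPM in repoGFP+ cells, against 15.1, 31.7 and 9.87 CPM in repoGFP- cells (3.72, SE 0.43, adjusted p = 0.00133). GstE12 averaged 329 ± 73.4 CPM in repoGFP+ and 16.2 ± 18.7 CPM in repoGFP- cells (4.33, SE 0.83, adjusted p = 0.0119). None of these groups overlapped. GstE13 and GstZ2, a gene of the class that isomerises maleylacetoacetate in tyrosine breakdown, were lower in glia: GstE13 averaged 16 CPM in repoGFP+ and 34.4 CPM in repoGFP- cells (-1.13, SE 0.30, adjusted p = 0.0396), and GstZ2 averaged 31.4 CPM in repoGFP+ and 58.8 CPM in repoGFP- cells (-0.92, SE 0.22, adjusted p = 0.0259). GstO2, an Omega-class gene, and GstT1, a Theta-class gene, were not called, at 15 CPM in repoGFP+ and 18 CPM in repoGFP- cells (adjusted p = 0.627) and at 34.6 CPM in repoGFP+ and 23.3 CPM in repoGFP- cells (adjusted p = 0.289). Markers of fat body, a tissue rich in GSTs, summed to 282 to 395 CPM in repoGFP+ cells and 52 to 75 CPM in repoGFP- cells, over 8 genes together. Markers of muscle summed to 124 to 246 CPM in repoGFP+ and 1.64 to 6.41 CPM in repoGFP- cells, over 6 genes. The part of these markers in the result was not tested.

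**Figure D2:**
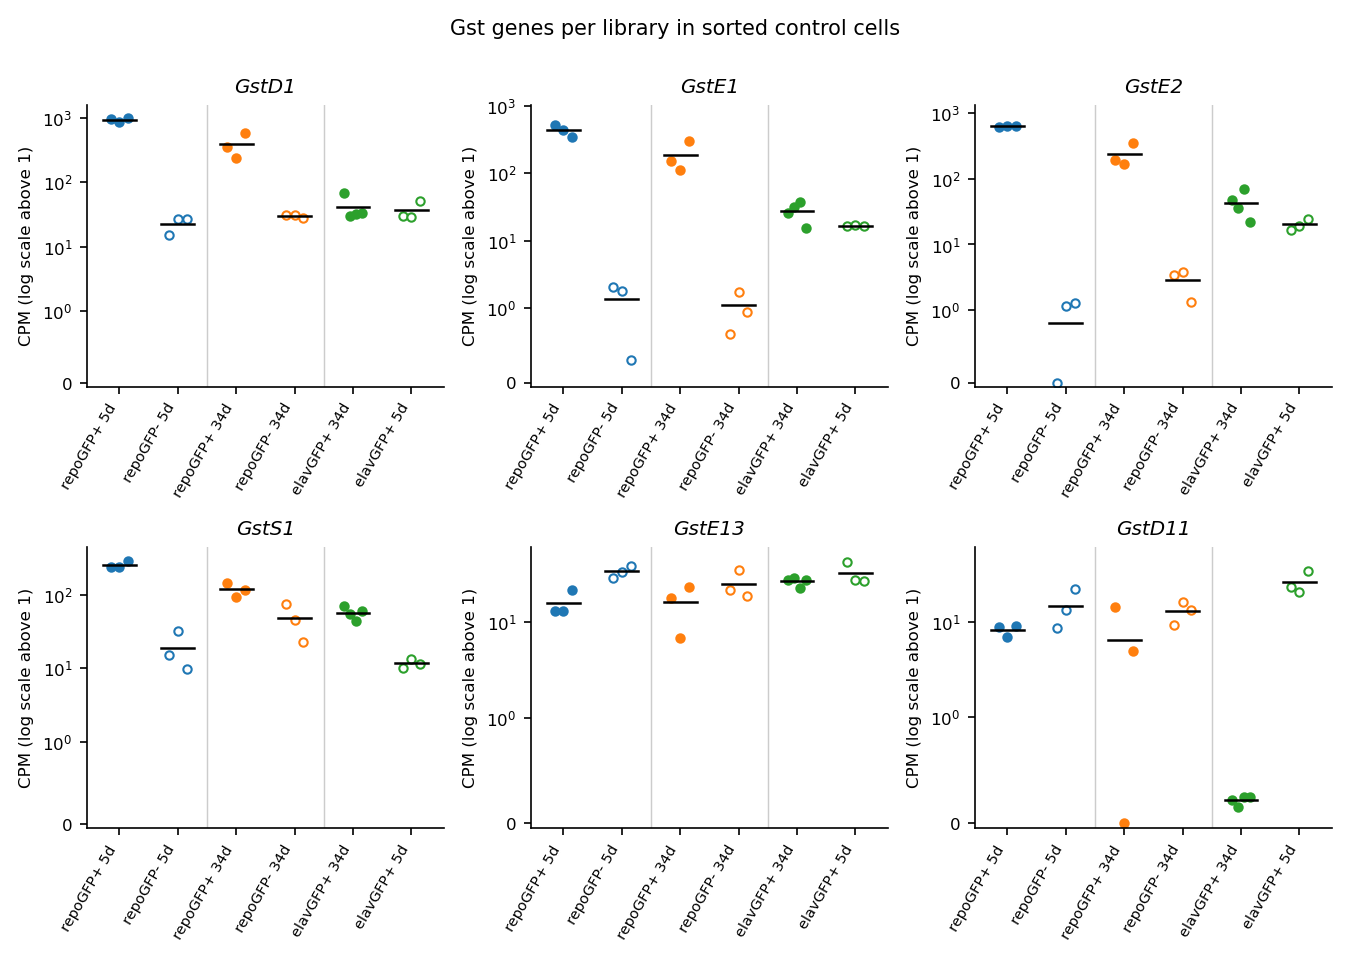
Points are single libraries in CPM (log scale above 1 CPM, linear below), bars are means, and the groups run from repoGFP+ and repoGFP- control cells at 5d and at 34d to elavGFP+ control cells at 34d and 5d. GstD1, GstE1 and GstE2 separate repoGFP+ from repoGFP- cells at both ages, and GstD11 sits under 0.26 CPM in all 4 elavGFP+ libraries at 34d.

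At 34d, 10 of 24 GSTs tested were higher in repoGFP+ than in repoGFP- cells and 0 were lower, against 5.46% of all genes higher and 1.23% lower. The median was 2.67 over the GSTs and -0.01 over all genes. GstE1 had 151, 113 and 297 CPM in repoGFP+ cells, against 0.655, 1.74 and 0.941 CPM in repoGFP- cells (7.34, SE 0.56, edgeR adjusted p = 0.000714). GstE2 had 191, 169 and 354 CPM in repoGFP+ cells, against 3.44, 3.83 and 1.33 CPM in repoGFP- cells (6.34, SE 0.51, adjusted p = 0.000873). GstD2 had 9.24, 15.8 and 4.21 CPM in repoGFP+ cells and no read in any repoGFP- library, at least 41.9-fold higher against a floor of 3 counts per library, a bound that covers counting error only (adjusted p = 0.0176). GstE10 (5.78, SE 0.89), GstE3 (5.57, SE 1.12) and GstE6 (5.38, SE 1.09) rose as well. The calls of GstD2, GstE3 and GstE6 rest on few libraries. Without repoGFP+ replicate 1 their adjusted p was 0.0646, 0.0836 and 0.0721, and the count fell to 6. The call of GstD2 was lost also without repoGFP+ replicate 2, and those of GstE3 and GstE6 without repoGFP+ replicate 2 or 3 or repoGFP- replicate 2, with adjusted p-values between 0.0527 and 0.12. GstE3 also lost its call without repoGFP- replicate 1 (adjusted p = 0.075) and GstE6 without repoGFP- replicate 3 (adjusted p = 0.0775).

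The fitted difference between the glial excess at 34d and that at 5d was negative for 23 of 28 GSTs, but 0 passed the test of it (edgeR; 6 had an unadjusted p under 0.05), against 0.0305% of all genes. DESeq2 called 3, GstD1, GstD9 and GstS1, all lower at 34d, and edgeR called 1 without repoGFP+ 34d replicate 3. Within repoGFP+ cells, GstD1 had 351, 235 and 588 CPM at 34d, against 959, 862 and 982 CPM at 5d (log2 fold change -1.16, SE 0.30, edgeR adjusted p = 0.129), and GstS1 averaged 117 ± 25.4 CPM at 34d and 252 ± 29 CPM at 5d (-1.0, SE 0.21, adjusted p = 0.0819). Neither pair of groups overlapped. Of 26 GSTs tested with age in repoGFP+ cells, 0 were called by edgeR, against 0.12% of all genes. Before adjustment 9 had an edgeR p under 0.05, and DESeq2 called 8, all lower. The shares of all genes at that unadjusted p or by DESeq2 are not given here, nor for the contrast above. These counts thus have no background beside them. Without repoGFP+ 34d replicate 3, edgeR called 3, all lower. The summed glial markers of repoGFP+ cells were also lower at 34d, 5936 to 10944 CPM against 20080 to 28424 CPM at 5d, and their part in the result was not tested. In repoGFP- cells 0 of 18 GSTs were called with age (edgeR; 1 with an unadjusted p under 0.05, 0 by DESeq2), against 1.2% of all genes.

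Ribosome-bound RNA gave the same question an independent readout. At 5d, 15 of 29 GSTs were higher and 3 lower in glial (repo) than in neuronal (elav) TRAP-IP, where 16.7% of all 9732 genes were higher and 16.3% lower. The median was 0.93 over the GSTs and -0.02 over all genes. GstD2 had 24.6, 30, 48.2 and 54.3 CPM in glia, against 1.44, 0.587 and 0.914 CPM in neurons (log2 fold change 5.45, SE 0.50, edgeR adjusted p = 2.32e-05), with at most 3 reads in any neuronal library. GstE1 had 288, 236, 319 and 336 CPM in glia, against 16.5, 23.7 and 26.5 CPM in neurons (3.63, SE 0.24, adjusted p = 4.82e-06). GstE2 had 320, 235, 328 and 353 CPM in glia, against 26.6, 28 and 27.7 CPM in neurons (3.42, SE 0.22, adjusted p = 3.94e-06). The groups did not overlap for any of these genes. GstD1 and GstD3 rose by 2.77 each (SE 0.28 and 0.32), and GstE10 averaged 22.4 CPM in glia and 1.05 CPM in neurons.

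Other GSTs were higher in neuronal (elav) than in glial (repo) TRAP-IP. GstO2 had 48, 42.5, 47.6 and 47.2 CPM in glia, against 192, 130 and 135 CPM in neurons (-1.78, SE 0.20, edgeR adjusted p = 7.06e-05). GstO2 shares 61 exonic bases with the gene sepia (se) on the other strand, and the strand setting of the counting is not given. The effect of this overlap on GstO2 was not tested. GstE14, known as noppera-bo and needed in larvae for making the steroid hormone ecdysone, had 46.5, 49.9, 48.5 and 37.9 CPM in glia, against 173, 81.6 and 113 CPM in neurons (-1.49, SE 0.25, adjusted p = 0.00105), and GstD11 averaged 4.38 CPM in glia and 23 CPM in neurons (-2.49, SE 0.36, adjusted p = 0.000377). GstE14 and GstD11 lay past the 6 largest changes and were chosen after their values were seen. GstE12 differed less than in the sort, with 859 ± 96.3 CPM in glia (SD, n = 4) and 452 ± 138 CPM in neurons (SD, n = 3). Photoreceptor markers summed to 13757 to 17575 CPM in glial and 23524 to 32335 CPM in neuronal TRAP-IP. Neuronal markers overlapped between the groups, at 5986 to 8099 CPM in glial and 6507 to 7750 CPM in neuronal TRAP-IP. Glial markers summed to 14103 to 24290 CPM in glial TRAP-IP. In neuronal TRAP-IP they summed to 2863 to 3736 CPM, against 3639 to 4496 CPM in its inputs. The part of these markers in the GST differences was not tested.

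At 34d, 12 of 27 GSTs were higher and 1 was lower in glial TRAP-IP, against 12.3% of all genes higher and 7.86% lower, with a median of 1.21 over the GSTs and 0.00 over all genes. GstD2 averaged 40.9 CPM in glia and 2.93 CPM in neurons (3.84, SE 0.55, edgeR adjusted p = 0.000387). GstE2 had 110, 147, 229 and 319 CPM in glia, against 35.2, 30.2, 51.6 and 38.6 CPM in neurons (2.39, SE 0.31, adjusted p = 0.000178). GstE1 averaged 139 CPM in glia and 27.9 CPM in neurons (2.34, SE 0.26), and GstD3 49.4 CPM in glia and 9.6 CPM in neurons (2.38, SE 0.40). GstE10 rose by 2.73 (SE 0.68), with an adjusted p of 0.0502 without repo replicate 2. GstD11 averaged 1.61 CPM in glia and 17.4 CPM in neurons (-3.32, SE 0.99, adjusted p = 0.0318), and its adjusted p was between 0.0512 and 0.0971 when any of the elav libraries, or repo replicate 1 or 2, was left out. Neuronal markers again overlapped, at 6276 to 8654 CPM in glial and 5778 to 7395 CPM in neuronal TRAP-IP. Glial markers summed to 6225 to 10606 CPM in glial and 1298 to 1642 CPM in neuronal TRAP-IP.

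TRAP-IP set against its own input asked which GST transcripts the tagged ribosomes of a cell type held more of than the whole brain. In glia at 5d, 17 of 30 GSTs were higher and 2 lower in the IP, where 28.8% of all genes were higher and 27.6% lower, with a median of 0.80 over the GSTs and -0.03 over all genes. GstD9 had 239, 294, 331 and 386 CPM in the IP, against 24.6, 24.8, 26.3 and 37.4 CPM in the inputs (log2 fold change 3.0, SE 0.13, edgeR adjusted p = 9.29e-12). GstD2 (2.58, SE 0.21), GstD3 (2.46, SE 0.14), GstT2 (2.22, SE 0.16), GstE2 (1.99, SE 0.13) and GstE1 (1.80, SE 0.12) rose as well. GstT2 shares 223 exonic bases with CG12926 on the other strand. Fragments over more than 1 gene are dropped by the counting, whose strand setting is not given. The effect of this overlap on GstT2 was not tested. In neurons at 5d, 1 of 28 GSTs was higher and 6 were lower in the IP, where 5.46% of all genes were higher and 5.67% lower, with a median of -0.63 over the GSTs and -0.03 over all genes. GstE2 had 26.6, 28 and 27.7 CPM in the IP, and the 3 paired inputs averaged 88.6 ± 20.5 CPM (-2.08, SE 0.25, adjusted p = 0.000911). GstE1 fell by 1.77 (SE 0.27), GstD1 by 1.21 (SE 0.28) and GstS1 by 1.08 (SE 0.23), whereas GstO2 rose by 1.17 (SE 0.21, adjusted p = 0.00648). The IP and input values of GstD1 and GstS1 overlapped, and those of the other genes named did not. The neuronal counts of calls rest on single pairs. Without pair 1, the shallowest, 16 GSTs were called. Without pair 2 or pair 3, 2 were called, with GstD1, GstS1, GstO2 and GstE10 losing their calls. The shares of all genes called in these fits are not given here.

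With age, GstE14 and GstE13 fell in whole heads. Of 32 GSTs tested in control heads, 1 was higher and 8 were lower at 34d than at 5d, where 23.5% of all 10512 genes were higher and 27.9% lower. The median log2 fold change was -0.21 over the GSTs and -0.05 over all genes. GstE14 had 18.2, 16.3 and 17.4 CPM at 34d, against 62.2, 71 and 57.5 CPM at 5d (-1.90, SE 0.10, edgeR adjusted p = 6.04e-05). GstE13 had 7.83, 8.49 and 8.45 CPM at 34d, against 23.7, 24.3 and 24.2 CPM at 5d (-1.56, SE 0.08, adjusted p = 6.02e-05). The replicates of both lay close together and the ages did not overlap. GstE3 averaged 54.3 ± 1.67 CPM at 34d and 148 ± 32.6 CPM at 5d (-1.46, SE 0.16, adjusted p = 0.000486), and GstD3, GstE1 and GstE5 fell by 0.99, 0.79 and 0.78. The call of GstE5 was lost without 34d replicate 2 (adjusted p = 0.0605). GstE10 (0.724 CPM at 34d and 0.391 CPM at 5d) was the 1 gene called higher and stayed under 1 CPM.

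One library weighed on this comparison. Control heads at 5d replicate 1 held 2948 CPM of GSTs in all, against 2026 and 2032 CPM in the other two, and GstE12 had 939 CPM there against 558 and 659 CPM. Without it, 8 GSTs were higher and 10 lower at 34d, or 56.2% of those tested against 63.7% of all genes, and the median over the GSTs was -0.05. GstD9 then rose by 0.98 on the log2 scale and GstS1 by 0.49. Markers of muscle summed to 1820 to 1857 CPM at 34d and 5641 to 10885 CPM at 5d. Summed glial markers were also lower, at 2244 to 2325 CPM at 34d and 2843 to 3654 CPM at 5d. Of the 10 glial markers, 4 were called higher and 4 lower. Photoreceptor markers were higher, at 61081 to 62684 CPM at 34d and 36140 to 56761 CPM at 5d. The part of these markers in the result was not tested.

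**Figure D3:**
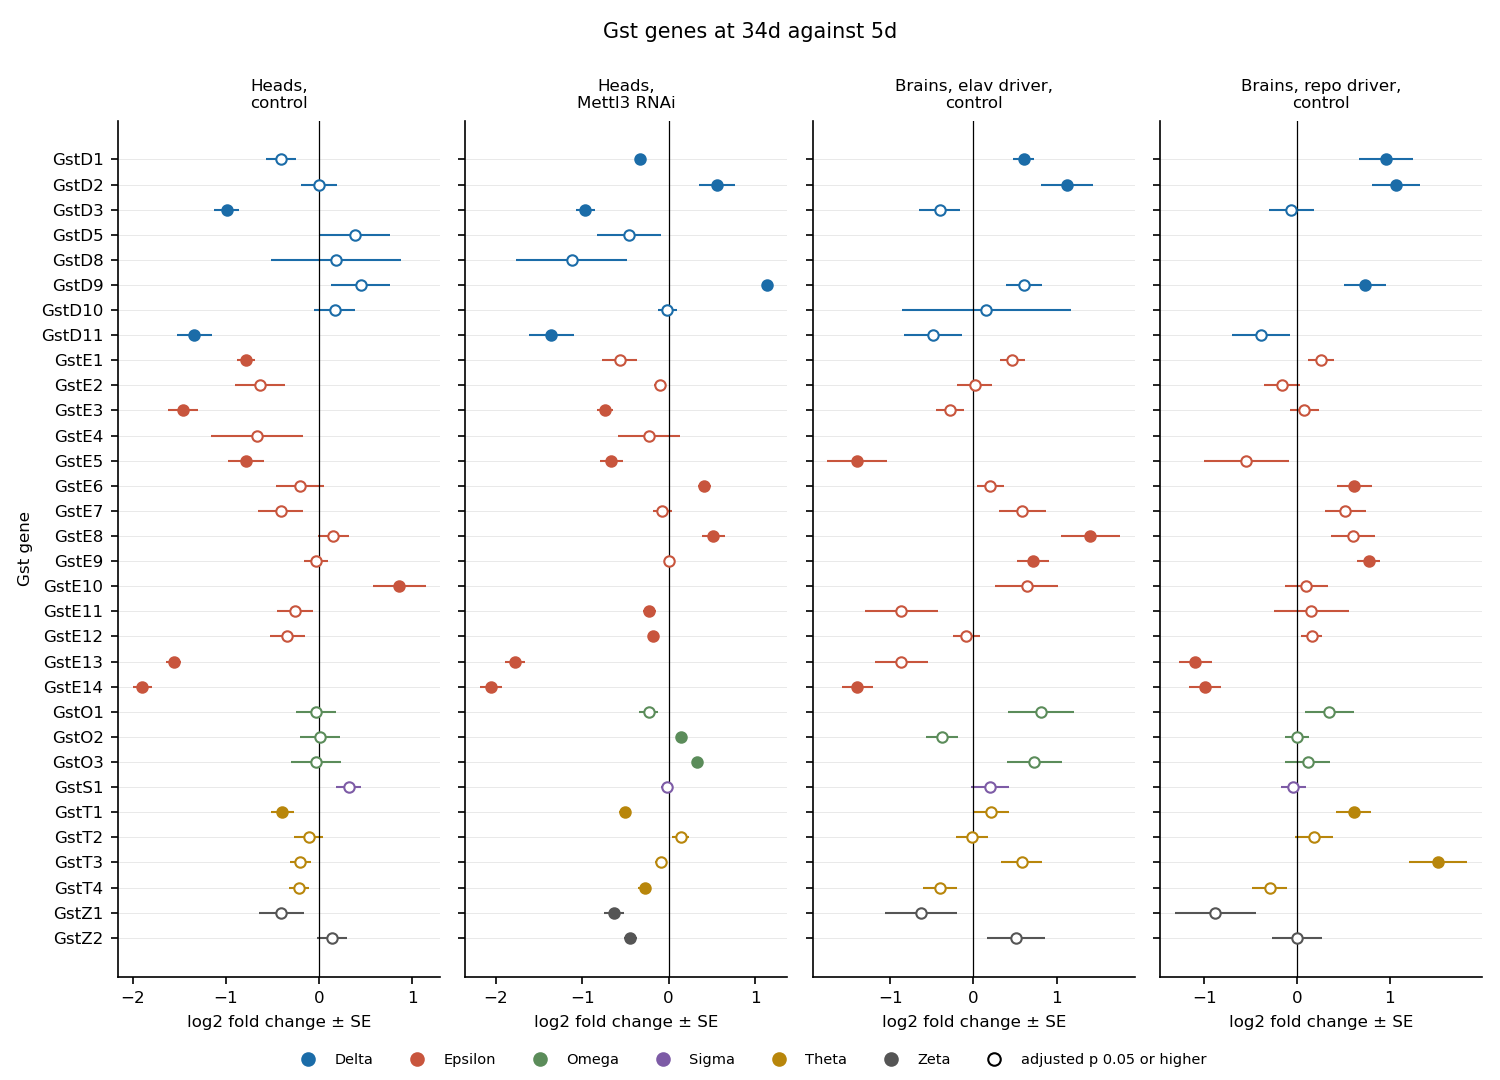
Each row is a GST gene and each panel a comparison of 34d with 5d (control heads, Mettl3 RNAi heads, control brains with the elav and with the repo driver), with the log2 fold change ± SE, filled where the adjusted p was under 0.05. GstE14 lies left of 0 in all 4 panels and is filled in each, while GstD1 lies left of 0 in heads and right of 0 in brains.

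In Mettl3 RNAi heads, 6 GSTs were higher and 13 lower at 34d of 31 tested, where 34.6% of all genes were higher and 37.1% lower, with a median of -0.23 over the GSTs and -0.02 over all genes. GstE14 had 11.7, 13.1 and 13.1 CPM at 34d, against 60.6, 53.3 and 43.3 CPM at 5d (-2.05, SE 0.13, edgeR adjusted p = 1.98e-06). GstE13 fell by 1.78 (SE 0.11), GstD3 by 0.96, GstE3 by 0.74 and GstE5 by 0.66. GstD9, a Delta gene next to GstD1, rose: it had 47.3, 48.1 and 43 CPM at 34d, against 20.1, 20.8 and 21.4 CPM at 5d (1.14, SE 0.06, adjusted p = 4.79e-08). In control heads GstD9 had 42.6, 45 and 44 CPM at 34d, against 51.4 CPM in replicate 1 and 22.8 and 21.4 CPM in the others at 5d. Tested directly, the age change of 0 of 32 GSTs differed between Mettl3 RNAi and control heads (edgeR; 3 with an unadjusted p under 0.05), where 2.03% of all genes did. DESeq2 called 1, GstE3. Without control 5d replicate 1, edgeR called 3, GstZ2, GstS1 and GstO1, all lower, or 9.38% of GSTs against 10.5% of all genes. Without control 5d replicate 3 it called 1, which was higher.

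Whole brains, taken as the inputs of the TRAP experiment, showed GstE14 falling with age under both drivers. With the elav driver, 4 of 29 GSTs were higher and 2 lower at 34d, where 5.61% of all genes were higher and 7.28% lower, with a median of 0.20 over the GSTs and 0.00 over all genes. GstE14 had 30.6, 24.3, 30.4 and 34.8 CPM at 34d, against 74.4, 70.6, 64.4 and 111 CPM at 5d (-1.40, SE 0.19, edgeR adjusted p = 0.000383). GstD1 had 249, 241, 243 and 269 CPM at 34d, against 139, 184, 178 and 163 CPM at 5d (0.60, SE 0.13, adjusted p = 0.00762), again with no overlap. GstE8 rose by 1.41, GstD2 by 1.13 and GstE9 by 0.72, and GstE5 fell by 1.40. These last 4 calls are fragile, since leaving out 34d replicate 4 raised their adjusted p to 0.0799, 0.101, 0.0668 and 0.0599 and left 2 calls. Leaving out 5d replicate 2 also left 2, and leaving out 34d replicate 1 left 3. The call of GstD2 was lost without any 1 of the 34d libraries, and that of GstD1 with replicates 1 to 3 alone (0.56, adjusted p = 0.0691). Glial markers in these inputs summed to 2126 to 2815 CPM at 34d and 3639 to 4496 CPM at 5d, and their part in the result was not tested.

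With the repo driver, 7 of 28 GSTs were higher and 2 lower at 34d, where 12.2% of all genes were higher and 13.1% lower, with a median of 0.13 over the GSTs and 0.03 over all genes. GstE14 had 21.9, 21.4, 20.5 and 14.2 CPM at 34d, against 34.3, 39.8, 35.4 and 47 CPM at 5d (-0.99, SE 0.17, edgeR adjusted p = 0.000992), and GstE13 had 11.2, 10.8, 11.4 and 8.56 CPM at 34d, against 20.4, 20.8, 23.4 and 25.9 CPM at 5d (-1.10, SE 0.18, adjusted p = 0.000636). GstE9 had 114, 119, 99.9 and 99.7 CPM at 34d, against 58.6, 57.6, 63 and 76.4 CPM at 5d (0.77, SE 0.13, adjusted p = 0.000645). GstE9 shares 40 exonic bases with imd, the adaptor of the Imd immune pathway, and the strand setting of the counting is not given in the sources used here. GstD2 had 10, 9.86, 7.48 and 10.9 CPM at 34d, against 3.25, 5.5, 4.97 and 4.64 CPM at 5d (1.07, SE 0.26, adjusted p = 0.00853), and GstT3 rose by 1.52 (SE 0.31, adjusted p = 0.0067). GstD1 averaged 361 ± 149 CPM at 34d and 187 ± 30.7 CPM at 5d (0.96, SE 0.30, adjusted p = 0.0474). Its groups overlapped, and its adjusted p was between 0.0574 and 0.145 when 34d replicate 1 or 3 or any 5d library was left out. The count fell to 5 without 5d replicate 1, 5d replicate 3 or 34d replicate 3. Glial markers summed to 1818 to 1996 CPM at 34d and 2340 to 3309 CPM at 5d in these inputs.

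**Figure D4:**
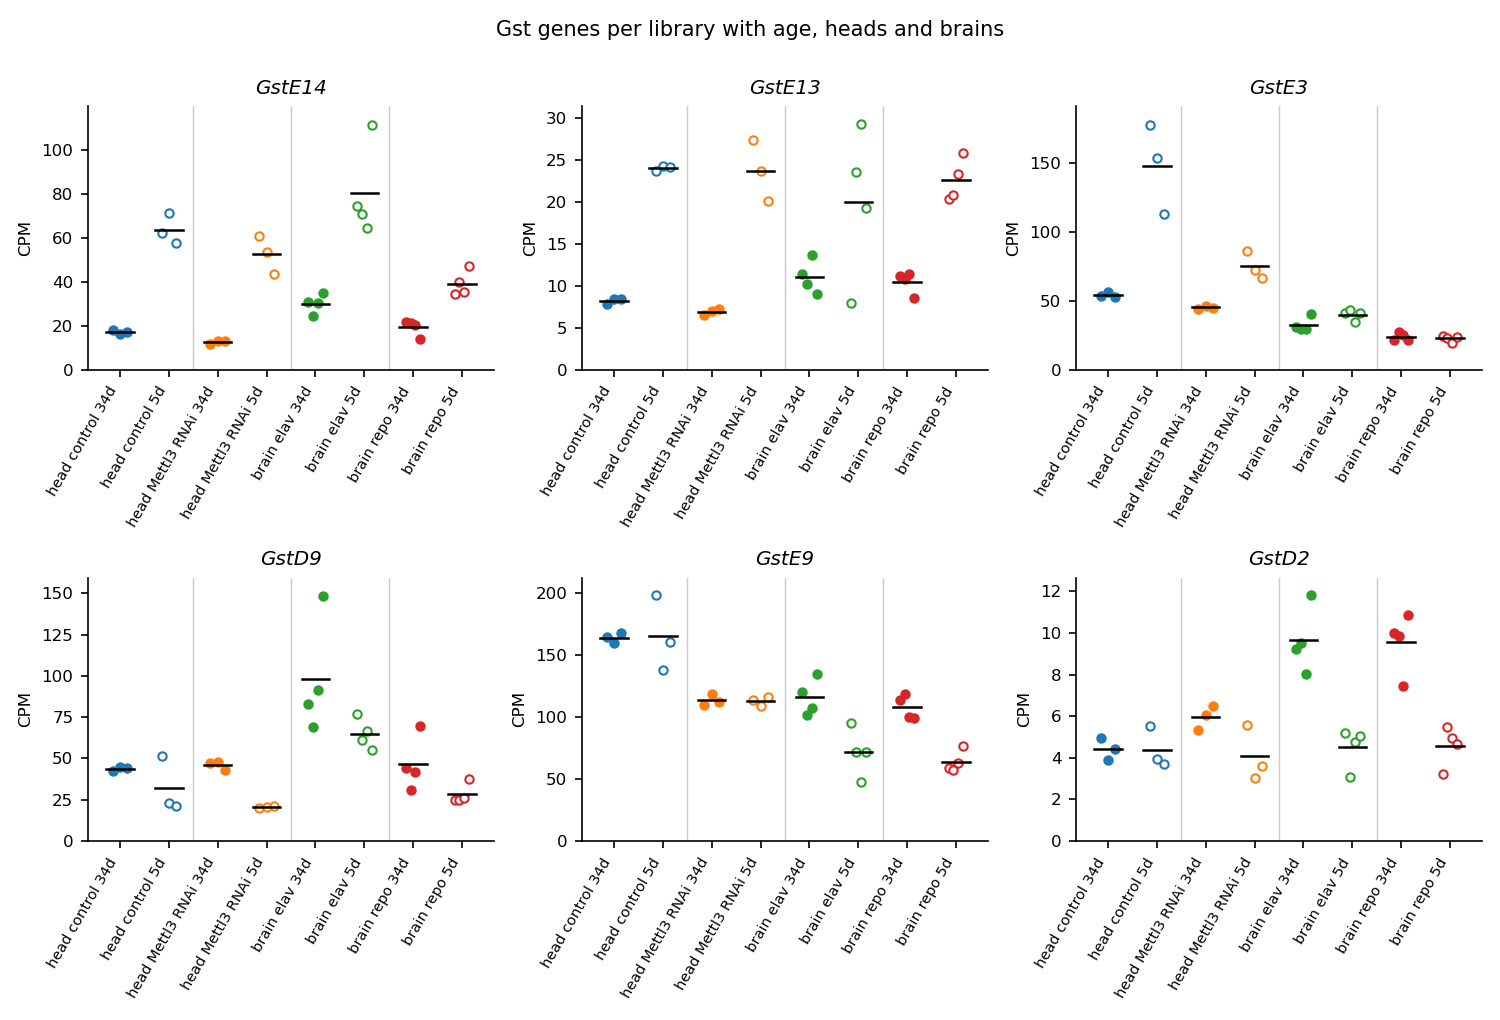
Points are single libraries in CPM and bars are means, for heads (control, then Mettl3 RNAi) and control brains (elav, then repo driver), each with 34d left of 5d. GstE14 is lower at 34d in every pair of groups with no overlap, GstD2 is higher at 34d in both brain pairs, and the replicate of control heads at 5d that stands apart is seen for GstD9, at 51.4 CPM.

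In sorted elavGFP+ neurons, 1 of 26 GSTs was higher and 1 lower at 34d, where 1.71% of all genes were higher and 2.65% lower, with a median of 0.48 over the GSTs and 0.03 over all genes. GstS1 had 70.8, 53.9, 43.5 and 59.1 CPM at 34d, against 10.2, 13.5 and 11.4 CPM at 5d (log2 fold change 2.29, SE 0.25, edgeR adjusted p = 0.0012). GstD11 had 0.221, 0.155, 0.25 and 0.247 CPM at 34d, or 3 to 5 reads, against 22.8, 20.6 and 34.2 CPM at 5d (-6.84, SE 0.43, adjusted p = 3.48e-05). Neither pair of groups overlapped. The summed glial markers went the other way from GstS1, at 2525 to 3519 CPM at 34d and 5542 to 7278 CPM at 5d. The near-absence of GstD11 was not seen in other libraries of neurons: at 34d, neuronal TRAP-IP held 20.6, 15.6, 12.3 and 21.3 CPM and repoGFP- cells had 9.17, 16.1 and 13.3 CPM. In Mettl3 RNAi elavGFP+ cells at 34d GstD11 had 0.13, 0.773, 12.5 and 0.296 CPM. GstD1 averaged 41.4 CPM at 34d and 36.9 CPM at 5d (adjusted p = 0.872).

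A wide set of GSTs was lower in Mettl3 RNAi heads at 34d, with a small median change. Of 31 tested, 2 were higher and 17 lower than in control, where 21.7% of all genes were higher and 19.1% lower, with a median of -0.15 over the GSTs and -0.01 over all genes. GstE1 had 33.3, 34.2 and 38 CPM with Mettl3 RNAi, against 68.3, 65 and 65.7 CPM in control heads (-0.92, SE 0.06, edgeR adjusted p = 2.04e-09). GstZ2 had 58.4, 67.6 and 64.3 CPM with Mettl3 RNAi, against 110, 107 and 108 CPM in control (-0.78, SE 0.05, adjusted p = 4.26e-09), and its neighbour GstZ1 averaged 5.13 CPM with Mettl3 RNAi and 8.26 CPM in control (-0.70, SE 0.11). GstE9 averaged 114 CPM with Mettl3 RNAi and 164 CPM in control (-0.54, SE 0.04), and GstO1 5.42 CPM with Mettl3 RNAi and 7.98 CPM in control (-0.57, SE 0.10). GstE11 went the other way, at 12.9, 14.1 and 12.3 CPM with Mettl3 RNAi and 8.89, 8.3 and 9.68 CPM in control (0.54, SE 0.09, adjusted p = 8.9e-05). None of these groups overlapped. GstD1 averaged 268 CPM with Mettl3 RNAi and 278 CPM in control (adjusted p = 0.299). Without control replicate 3 the calls were 2 higher and 10 lower. Summed neuronal markers were also higher, at 5844 to 6189 CPM with Mettl3 RNAi and 4584 to 4855 CPM in control, and their part in the result was not tested. This comparison and the age changes above share the 34d libraries.

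At 5d, 0 of 31 GSTs were called with Mettl3 RNAi in heads by edgeR, against 0.173% of all genes. Before adjustment 9 of 31 GSTs and 1143 of all 10429 genes had a p under 0.05. The median log2 fold change was -0.25 over the GSTs and -0.0017 over all genes. Without control replicate 1 the medians were -0.03 and -0.0025, and again 0 GSTs were called, against 0.88% of all genes. DESeq2 called 3, GstE1, GstE3 and GstE9, all lower, and its share of all genes is not given here. In sorted cells at 34d Mettl3 itself averaged 1.1 CPM with RNAi and 5.42 CPM in control elavGFP+ cells (adjusted p = 0.338), and 1.23 CPM with RNAi and 8.85 CPM in control repoGFP+ cells (adjusted p = 0.79). In elavGFP+ cells at 34d 0 of 25 GSTs were called (1 with an unadjusted p under 0.05, 0 by DESeq2), against 0.0366% of all genes, and in repoGFP+ cells 0 of 24 (1 with an unadjusted p under 0.05), against 0% of all genes. In repoGFP+ cells DESeq2 called GstS1, which averaged 258 ± 36.9 CPM with Mettl3 RNAi and 117 ± 25.4 CPM in control (edgeR log2 fold change 1.08, SE 0.21, adjusted p = 0.363).

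The m6A-IP/input ratio rises with the m6A that a transcript carries, relative to the other transcripts. GST transcripts were low on it: in control heads at 5d 27 of 28 GSTs lay below the median gene, with a median log2 ratio of -1.08 over the GSTs and -0.12 over all genes, and at 34d 25 of 27 did, with -1.44 over the GSTs and -0.33 over all genes. With Mettl3 RNAi most stayed low. At 5d 22 of 28 GSTs lay below the median gene (-1.12 over the GSTs and -0.17 over all genes). At 34d 22 of 27 did (-0.97 over the GSTs and -0.21 over all genes). How far the low ratio reflects m6A was not tested. GstS1 was the 1 GST above 0 in control, at 0.44 ± 0.07 at 34d and 0.56 ± 0.06 at 5d (SD, n = 3 each). With Mettl3 RNAi at 34d the ratio of GstS1 fell by 0.42 (SE 0.11, edgeR adjusted p = 0.0064), to 0.14 ± 0.22. It was the 1 GST that fell of 31, while 10 rose, where 12.6% of all genes rose and 19.7% fell and the median was 0.33 over the GSTs and 0.09 over all genes. GstT2 rose by 0.82 (SE 0.19), GstE13 by 0.73 (SE 0.20), GstE11 by 0.66 (SE 0.19), GstE7 by 0.62 (SE 0.23), GstD3 by 0.60 (SE 0.15) and GstO2 by 0.51 (SE 0.12). Leaving out Mettl3 RNAi pair 1 brought the count to 7, with GstE11 (adjusted p = 0.0622) and GstE7 (0.207) no longer called. GstE7 also lost its call without Mettl3 RNAi pair 2 or control pair 1 or 2. Since IP libraries are scaled to equal totals, a rise of the ratio is relative to the other transcripts. At 5d 1 GST of 31 was called, GstE2, which rose (0.57, SE 0.16, adjusted p = 0.0133), where 5.03% of all genes rose and 14% fell, and its call was lost without control pair 1 (0.0823) or Mettl3 RNAi pair 1 (0.0921). Without either of those pairs 0 GSTs were called, and without control pair 3 or Mettl3 RNAi pair 2, 2 were.

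With neuronal Aβ42 at 6d, GstE14 was lower in both heads and brains, while the number of GSTs called was no larger a share than among all genes. In heads, 5 of 29 GSTs were higher and 5 lower with Aβ42, where 18.5% of all 10210 genes were higher and 17.5% lower, with a median of 0.02 over the GSTs and 0.01 over all genes. The 5 that fell were all Epsilon genes. GstE5 had 3.37 and 3.66 CPM with Aβ42, against 7.9, 8.45 and 8.72 CPM with mCD8-GFP (log2 fold change -1.25, SE 0.15, edgeR adjusted p = 2.97e-05). GstE14 had 17.5 and 16.6 CPM with Aβ42, against 26.9, 29.4 and 27.9 CPM with mCD8-GFP (-0.72, SE 0.08, adjusted p = 2.51e-05), and GstE3 averaged 35.1 CPM with Aβ42 and 47.6 CPM with mCD8-GFP (-0.44, SE 0.07). GstE12 averaged 631 CPM with Aβ42 and 710 CPM with mCD8-GFP (-0.17, SE 0.06, adjusted p = 0.0408). GstD2 had 6.09 and 5.1 CPM with Aβ42, against 3.09, 3.63 and 1.9 CPM with mCD8-GFP (0.96, SE 0.23, adjusted p = 0.00643). GstE9 had 167 and 193 CPM with Aβ42, against 132, 111 and 117 CPM with mCD8-GFP (0.59, SE 0.08, adjusted p = 0.000358), and GstE11 rose by 0.40 (adjusted p = 0.0978 without Aβ42 replicate 2). GstD1 averaged 328 CPM with Aβ42 and 286 CPM with mCD8-GFP (0.20, SE 0.07, adjusted p = 0.0411). None of these groups overlapped. Summed markers were also lower with Aβ42 for photoreceptors (39162 to 40216 CPM, against 56953 to 57696 CPM with mCD8-GFP) and for fat body (6467 to 7637 CPM, against 10306 to 13905 CPM). The same held for neurons (4959 to 5549 CPM, against 6348 to 6777 CPM), for glia (2369 to 2462 CPM, against 2711 to 2896 CPM) and for muscle (1887 to 2059 CPM, against 2671 to 2914 CPM). Hemocyte markers overlapped, at 467 to 473 CPM with Aβ42 and 460 to 552 CPM with mCD8-GFP. The part of these markers in the result was not tested.

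In brains, 1 of 29 GSTs was higher and 3 were lower with Aβ42, where 16% of all 9759 genes were higher and 15% lower, with a median of -0.05 over the GSTs and 0.02 over all genes. GstE14 had 6.15, 5.27 and 6.29 CPM with Aβ42, against 13.7, 12.7 and 12 CPM with mCD8-GFP (-1.11, SE 0.12, edgeR adjusted p = 0.000417). GstE12 had 223, 196 and 190 CPM with Aβ42, against 287, 294 and 298 CPM with mCD8-GFP (-0.53, SE 0.07, adjusted p = 0.00118). GstO3, an Omega-class gene, had 20.6, 24.6 and 37.6 CPM with Aβ42, against 9.62, 11.9 and 9.65 CPM with mCD8-GFP (1.42, SE 0.24, adjusted p = 0.00742). The groups did not overlap for any of these genes. GstE2 averaged 41.1 CPM with Aβ42 and 58.5 CPM with mCD8-GFP (-0.51, SE 0.14, adjusted p = 0.0307), and its adjusted p was between 0.0644 and 0.105 when any library but Aβ42 replicate 1 was left out. Aβ42 replicate 3 was the highest library for GstO3. Without it 7 GSTs were called, and without Aβ42 replicate 1, 11. The shares of all genes called in these fits are not given here. GstD1 averaged 210 CPM with Aβ42 and 228 CPM with mCD8-GFP (adjusted p = 0.471). Summed markers were lower with Aβ42 for fat body (3645 to 5004 CPM, against 6793 to 8545 CPM with mCD8-GFP), for photoreceptors (25283 to 32894 CPM, against 46258 to 51070 CPM), for hemocytes (210 to 241 CPM, against 362 to 421 CPM), for glia (3711 to 4405 CPM, against 4803 to 4877 CPM) and for neurons (9558 to 11527 CPM, against 12304 to 12632 CPM), and their part in the result was not tested.

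**Figure D5:**
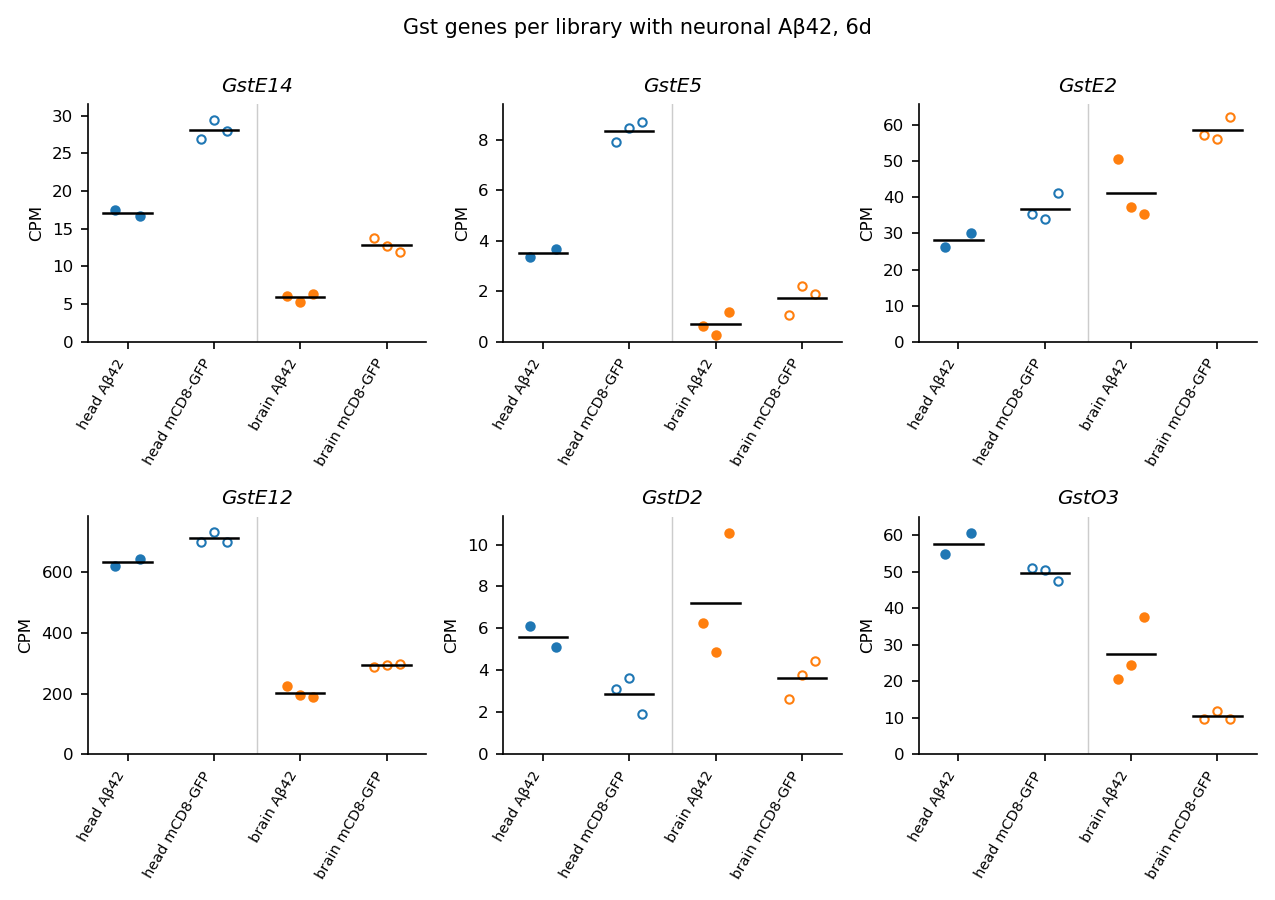
Points are single libraries in CPM and bars are means at 6d, with Aβ42 left of mCD8-GFP in heads (2 and 3 libraries) and in brains (3 and 3). GstE14 and GstE12 are lower with Aβ42 in both tissues with no overlap, GstE5 is under 4 CPM with Aβ42 in heads, and GstO3 reaches 37.6 CPM in 1 Aβ42 brain library.

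Of 30 other genes of glutathione and peroxide metabolism and of the CncC pathway, 13 were higher and 0 lower of 28 tested in repoGFP+ than in repoGFP- cells at 5d, against 13.3% of all genes higher and 4.77% lower. Sod3, an extracellular superoxide dismutase, averaged 447 CPM in repoGFP+ and 1.57 CPM in repoGFP- cells (8.15, SE 0.55, edgeR adjusted p = 0.00011), cnc itself 118 CPM in repoGFP+ and 20.5 CPM in repoGFP- cells (2.50, SE 0.34), and Gclc, the catalytic subunit of the enzyme that limits glutathione synthesis, 360 CPM in repoGFP+ and 133 CPM in repoGFP- cells (1.42, SE 0.19). At 34d 3 of 26 were higher and 1 lower in repoGFP+ cells, against 5.46% of all genes higher and 1.23% lower. In TRAP-IP at 5d 9 of 28 were higher and 4 lower in glia, against 16.7% of all genes higher and 16.3% lower. Sod3 averaged 586 CPM in glia and 74.1 CPM in neurons (2.91, SE 0.23), and sepia (se), an Omega-class GST of eye pigment synthesis whose symbol lies outside the rule, averaged 43.4 CPM in glia and 380 CPM in neurons (-3.20, SE 0.36).

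With age in control heads, 5 of 28 pathway genes were higher and 10 lower at 34d, against 23.5% of all genes higher and 27.9% lower. In all 53.6% of the list and 51.5% of all genes were called, so the count is near the background. The 5d heads include replicate 1, which stood apart, and values of this list without it are not given here. The peroxiredoxin gene Prx2540-2 averaged 11.6 CPM at 34d and 53.1 CPM at 5d (-2.22, SE 0.15, edgeR adjusted p = 0.000115), and sepia (se) 8.51 CPM at 34d and 117 CPM at 5d (-3.80, SE 0.29), whereas cnc averaged 287 CPM at 34d and 188 CPM at 5d (0.59, SE 0.10, adjusted p = 0.00276). In brains with the repo driver 4 of 28 were higher and 5 lower, against 12.2% of all genes higher and 13.1% lower, with cnc at 93.6 CPM at 34d and 54.7 CPM at 5d (0.78, SE 0.12). With Mettl3 RNAi in heads at 34d 3 were higher, cnc among them (0.43, SE 0.05), and 16 lower of 28, against 21.7% of all genes higher and 19.1% lower. With Aβ42, 8 of 28 were higher and 6 lower in heads, against 18.5% of all genes higher and 17.5% lower, and 7 of 28 were higher and 5 lower in brains, against 16% of all genes higher and 15% lower. In brains the glutathione peroxidase gene PHGPx averaged 211 CPM with Aβ42 and 84.1 CPM with mCD8-GFP (1.33, SE 0.06, adjusted p = 1.15e-05), and ref(2)P, the fly p62 that serves selective autophagy, averaged 533 CPM with Aβ42 and 202 CPM with mCD8-GFP (1.41, SE 0.05, adjusted p = 4.74e-06).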

How the data were processed

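RNA was sequenced from heads, brains, sorted cells, TRAP and m6A-IP. The authors trimmed reads with Trim Galore, aligned them with STAR 2.7.3a to dm6 and counted fragments over FlyBase exons, and the deposited values are these raw counts per gene with no normalization. A fragment that overlaps more than 1 gene is dropped by that counting, which lowers overlapping genes, and its strand setting is not given in the sources used here. The sources used here name no correction for close copies.

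Counts were tested with edgeR 4.0.16 (quasi-likelihood, TMM, filterByExpr, robust fits, Benjamini-Hochberg over all genes) in R 4.3.3 with limma 3.58.1, 1 fit per comparison with its own groups. TRAP-IP/input and m6A-IP/input fits were paired by replicate, since IP and input came from the same RNA (correlation of deviations 0.124 to 0.305 and 0.184 to 0.879). m6A ratios were log2 of CPM plus 0.1, over genes with a mean input count of at least 50. The scripts were tested on simulated data. Alternatives were DESeq2 1.42.0, RLE scaling, no filter, RUVr, all groups of a sort together, replicate blocks, replicates 1 to 3 alone and leaving out each library. Named genes were up to 6 per comparison with the largest change among those called at 5 CPM or more, with GstD1, GstE12, GstS1, GstO2, GstT1 and GstZ2 as fixed examples. Calls named under 5 CPM or past those 6 were chosen after their values were seen, as were the genes named from the list of 30. The members, lists and tests were chosen with earlier results of these data known. Exon lengths and positions came from Ensembl 115 (BDGP6, dm6). Sequences were not used here.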

Additional observations from a re-analysis of the deposited data

How the results depend on the processing

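Of 922 values of named genes under the alternatives, 845 kept their direction and call, 77 lost the call (62 of them by leaving out 1 library) and 0 reversed. These genes were picked as called and with the largest changes, and the alternatives reuse the same libraries. A gained call was thus not possible and a reversal was unlikely from the start. With DESeq2 the count of GSTs called was 3 for Mettl3 RNAi in heads at 5d, 1 for its effect on the age change, 5 with age in elavGFP+ cells, 8 with age in repoGFP+ cells, 3 for the age difference of the repoGFP+ over repoGFP- contrast, 1 for Mettl3 RNAi in repoGFP+ cells and 2 for the m6A ratio at 5d. In repoGFP+ cells with age it was 2 with no filter, 3 with RUVr and 1 with all groups of the sort in 1 fit, and for the m6A ratio at 5d 2 with RLE scaling and 2 with no filter. Replicates 1 to 3 alone gave 2 with age in brains with the elav driver. The causes were not tested.

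Outside the IP/input fits replicates share only a number (correlations of same-numbered samples -0.348 to 0.182), and not every pair was above 0.1 in any of those comparisons. A replicate block brought the count for repoGFP+ over repoGFP- at 34d to 6, with GstD2, GstE3 and GstE6 no longer called (adjusted p = 0.0983, 0.0728 and 0.0694), and moved no other count by over 1.5 times. With no replicate block the count was 4 for neuronal TRAP-IP over input and 0 for the m6A ratio at 5d.

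Leaving out 1 library gave counts of 6 to 18 with age in control heads, 17 to 19 in Mettl3 RNAi heads, 12 to 15 for Mettl3 RNAi at 34d, 0 to 3 for its effect on the age change, 7 to 9 for Aβ42 in heads, 3 to 11 in brains, 13 to 16 for repoGFP+ over repoGFP- at 5d, 6 to 8 at 34d, 0 to 1 for their difference, 0 to 3 with age in repoGFP+ cells, 15 to 22 for glial over neuronal TRAP-IP at 5d, 10 to 15 at 34d, 2 to 7 and 5 to 9 with age in brains (elav and repo driver), 2 to 16 and 17 to 20 for TRAP-IP over input in neurons and glia, and 0 to 2 and 7 to 13 for the m6A ratio at 5d and 34d. Most counts under the alternatives stand without the share of all genes called in the same setting. They thus do not show whether GSTs moved more than other genes. Depth limits low genes most in TRAP-IP, where the shallowest library held 2132983 reads.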

Other observations

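Mettl3 RNAi in brains, which the comparisons above do not cover, gave lower GstE1 in the TRAP inputs, chosen after its values were seen and not tested. With the elav driver GstE1 had 34.9 to 43.9 CPM with Mettl3 RNAi and 65 to 84.6 CPM in control at 34d. With the repo driver it had 29.8 to 53.4 CPM with Mettl3 RNAi and 68.6 to 78.6 CPM in control at 34d. In sorted repoGFP+ cells at 34d GstE1 averaged 199 CPM with Mettl3 RNAi and 187 CPM in control. In glial TRAP-IP at 5d all GSTs together summed to 4741 to 5132 CPM with Mettl3 RNAi (3 libraries) and 3132 to 3972 CPM in control (4 libraries). In the same libraries glial markers summed to 28509 to 33026 CPM with Mettl3 RNAi and 14103 to 24290 CPM in control, and neuronal markers to 3796 to 4845 CPM with Mettl3 RNAi and 5986 to 8099 CPM in control.

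In brains Aβ42 replicate 3 was high for GSTs that were not called: GstT4 had 61.8 CPM there and 9.1 and 9.4 CPM in the other Aβ42 brains, and GstD5 had 14.7 CPM there. Over the 8 groups of sorted repoGFP cells, GstD1 and GstD3 were in the same order (Spearman's rho 1 over group means, groups not being independent). So were GstD9 and GstS1, which are of different classes and lie on different chromosomes. GstE2 and GstE10 were too, with the limit on GstE10 given above, while GstE13 was nearest to GstZ2 (0.833). This describes 8 groups of 1 experiment and carries no test. Over 44 sets of values examined, each of 1 named gene in 1 group of 4 libraries, 0 had an outlying library by Dixon's criterion, where chance gives about 1 in 20.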
